A study of Mus musculus with 10 samples.

Results

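The Egr transcription factors and their Nab corepressors were followed as 6 named gene rows, EGR1, EGR2, EGR3, EGR4, NAB1 and NAB2, out of 24982 rows in the deposited count table. The rows were chosen by gene name, which the table writes in capitals; mouse spelling is used below. All 6 passed the filter on low counts, which left 14867 genes. The table holds RNA-seq of the dentate gyrus, the hippocampal region of the granule neurons, dissected from 10 male C57BL/6 mice aged 10 weeks. Of these, 5 were wild type and 5 carried a global knockout of Fndc5, the gene for the irisin precursor, and no mouse is labelled as treated. Libraries, 1 per mouse, held 26226375 to 43802079 counts. The global deletion is carried by every cell of the knockout mice. The labels do not say which exons the knockout removes or whether the mice were littermates.

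Egr proteins are zinc-finger transcription factors that bind GC-rich DNA. Their genes are immediate-early genes: neurons transcribe them within minutes of synaptic input, through serum response factor and CREB acting downstream of ERK and calcium signalling. Nab1 and Nab2 have no DNA-binding domain of their own; they attach to Egr proteins and mostly lower the transcription of Egr targets, and Nab2 is itself an Egr target, which closes a feedback loop. In the hippocampus Egr1, also called Zif268, is known as a marker of recent neuronal activity and for its part in lasting synaptic potentiation.

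The labels and the tissue were checked before the members were compared. Fndc5 averaged 75.3 ± 4.6 in wild types against 51.3 ± 4.27 in knockouts, in CPM (counts scaled to library size with TMM factors; mean ± SD with n = 5 mice per genotype). It was the 1 gene of 14867 called in edgeR at an adjusted p under 0.05, with an adjusted p of 0.000495, so 0.00673% of genes were called. The 10 granule neuron markers were all detected, and their summed level was 2375.8 to 2791.7 CPM in wild types and 2574.0 to 2757.8 CPM in knockouts. Markers of 11 other cell types were present too. None was at 0, and no marker passed the test. The 8 interneuron markers summed to between 503.2 and 592.5 CPM across wild types and between 475.9 and 524.7 CPM across knockouts, with 7 of the 8 at a fold change below 0; their part in the values below was not tested. The 6 hilar mossy cell markers summed to 94.7 to 115.7 CPM across wild types and 85.4 to 114.0 CPM across knockouts, with 4 of the 6 below 0 and the lowest median log2 fold change of the 12 marker lists (-0.11, against -0.10 for interneurons); their part was not tested either. The 6 microglia markers summed to 263.5 to 291.6 CPM across wild types and 251.6 to 297.9 CPM across knockouts. In such bulk tissue, fewer cells of a type and less RNA per cell cannot be told apart.

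Whole windows before the start sites are shown for members that RefSeq's promoter table (GRCm38.p6) holds and whose window bases are not annotated exon. Of the Nab1 window, where 231 of 250 bases are annotated exon, only the stretches around its Egr sites are shown. Upstream sequence can carry elements that serum response factor and CREB bind. The table matched 4 of the 6 members, Egr2, Egr4, Nab1 and Nab2. The stretches below are the 250 bases before the start of Egr2 (chr10:67537619-67537868, plus strand) and of Egr4 (chr6:85513590-85513839, minus strand), 5′ to 3′. Capitals mark CArG boxes, the core that serum response factor binds, the CREB-site core GACGTCA and its shorter half-site TGACG, each searched on both strands.

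Egr2: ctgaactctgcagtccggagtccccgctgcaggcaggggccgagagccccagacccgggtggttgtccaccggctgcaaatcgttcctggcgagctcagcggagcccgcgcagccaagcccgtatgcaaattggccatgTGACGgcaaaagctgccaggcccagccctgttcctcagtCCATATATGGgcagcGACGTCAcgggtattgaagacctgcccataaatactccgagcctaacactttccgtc

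Egr4: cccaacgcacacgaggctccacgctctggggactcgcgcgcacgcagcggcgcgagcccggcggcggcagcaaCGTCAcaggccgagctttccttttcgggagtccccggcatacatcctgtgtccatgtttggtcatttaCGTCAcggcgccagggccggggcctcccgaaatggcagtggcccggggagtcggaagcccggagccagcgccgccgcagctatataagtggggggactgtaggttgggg

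The table lists 5 starts for Egr2, and the one shown is the start of GENCODE's principal transcript. Of the others, 2 have the same CArG box and CREB elements in their windows, 1 has a different CArG box and no CREB element, and 1 has no match. The Egr2 stretch held a CArG box from 72 to 63 bases before the start and a GACGTCA 57 to 51 bases before it, whose last bases are also a half-site. A further half-site lay 111 to 107 bases before the start. The Egr4 stretch held 2 half-sites, from 177 to 173 and from 109 to 105 bases before the start, with no match to the other elements in this window. Of 32851 promoter windows of the same length, 1.47% held a CArG box, 2.78% held GACGTCA and 17.8% held a half-site.

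For Nab1 the element of interest is the Egr site itself, searched as GCGTGGGCG and GCGGGGGCG on both strands. The Nab1 window held 3 such sites, shown here in capitals with 10 bases to either side on the gene's strand. They lie at chr1:52500571-52500599, chr1:52500539-52500567 and chr1:52500468-52500496 (GRCm38.p6, minus strand), and the first reads as GCGTGGGCG on the opposite strand.

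Nab1, 141 to 133 bases before the start: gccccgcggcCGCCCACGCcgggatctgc

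Nab1, 109 to 101 bases before the start: actcggccgcGCGTGGGCGggagccggag

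Nab1, 38 to 30 bases before the start: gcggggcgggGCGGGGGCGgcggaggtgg

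GCGTGGGCG occurred in 0.536% of all windows and GCGGGGGCG in 2.57%. All 3 sites lie in bases that GENCODE annotates as exon, because its start for Nab1 is 231 bases upstream of the RefSeq start. The same window held 1 CREB half-site, 123 to 119 bases before the start. The Nab2 window held neither Egr site and none of the other elements. The Nab1 window was 80.8% G and C and the Nab2 window 72.8%, against a median of 52.4%. A match describes these letters and shows no binding in this tissue.

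Levels per kilobase of exon differed widely among the members (GENCODE M21 exon lengths). In wild types Egr3 was the highest at 33.5 CPM per kb, followed by Nab2 at 16.5, Egr1 at 14.4, Nab1 at 5.57, Egr4 at 4.79 and Egr2 at 0.394 CPM per kb. Egr3 exceeded Nab2 in 10 of 10 mice, Egr1 exceeded Nab1 in 10 of 10, and Egr4 exceeded Egr2 in 10 of 10. The wild-type ranges of Nab2 and Egr1 overlapped, as did those of Nab1 and Egr4, so the order within those neighbouring pairs is not settled by the spread. Of the Egr messages summed per kb, Egr3 made up 63.1% ± 2.32 in wild types and 65.8% ± 2.14 in knockouts. Egr1 made up 27.1% ± 2.42 and 24.4% ± 1.37, Egr4 9.07% ± 1.58 and 9.31% ± 0.875, and Egr2 0.736% ± 0.173 and 0.499% ± 0.231 (mean ± SD, n = 5 each).

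**Figure D1:**
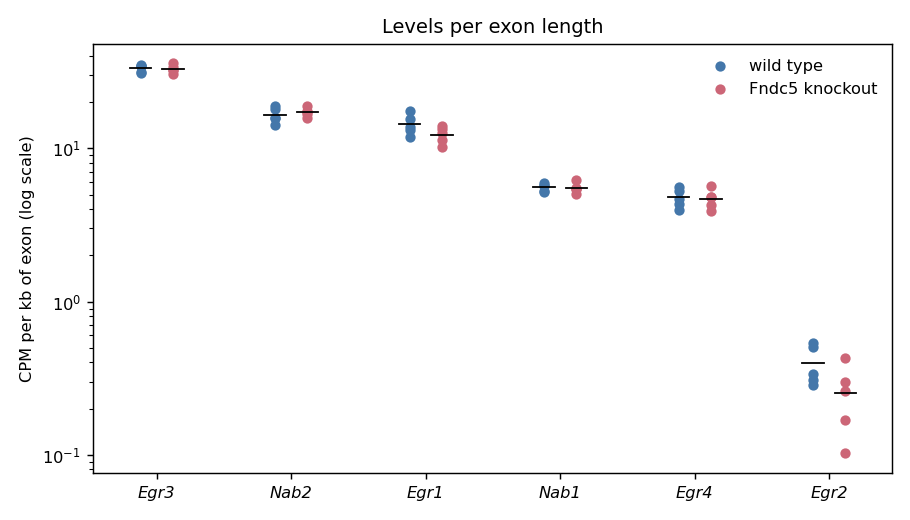
Level of each member in CPM per kb of exon (log axis), 1 point per mouse, with wild types in blue, Fndc5 knockouts in red and black bars at the group means. Egr3 lies above all others in every mouse and Egr2 (wild-type mean 0.394) lies under Egr4 (4.79) in every mouse.

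None of the 6 members passed the edgeR test of genotype over all genes, and the estimates for the 4 Egr factors ran from near 0 to -0.62. Egr1 and Egr2 had lower values in the knockout, with log2 fold changes of -0.23 and -0.62, while Egr3, Egr4 and Nab1 lay between -0.02 and -0.01 and Nab2 was at 0.06. At an unadjusted edgeR p under 0.05, 2 of the 6 were lower in the knockout, against 3.75% of all genes. That share is not independent evidence, because the family was picked with earlier values of these libraries known. Of the 6, 5 had a fold change below 0, against 49.3% of all genes, and the median of all genes was at 0.0016. In 0 of the 6 was every knockout mouse below every wild type, which held for 0.437% of genes.

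**Figure D2:**
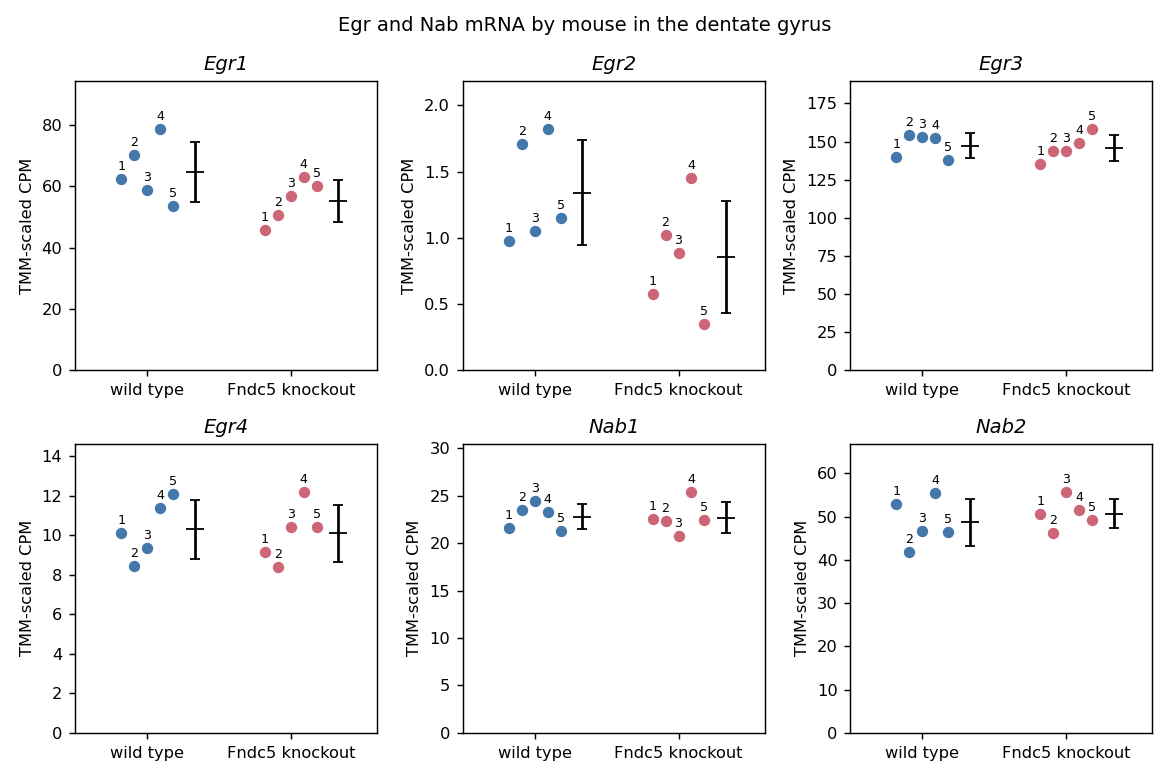
TMM-scaled CPM of each member, 1 numbered point per mouse, with the group mean and SD in black. The genotypes overlap in all 6 panels; Egr1 runs from 53.6 to 78.6 in wild types and from 45.8 to 62.9 in knockouts.

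Egr1, the founding member, lies on chromosome 18 from 34859823 to 34864984 (GRCm38, plus strand). It was at 62.3, 70.1, 58.9, 78.6 and 53.6 CPM in wild-type mice 1 to 5 and at 45.8, 50.6, 56.7, 62.9 and 60.1 CPM in knockout mice 1 to 5. Knockout mice 1 and 2 were below every wild type, all 5 knockouts were below the wild-type mean of 64.7 CPM, and the groups overlapped. The log2 fold change came to -0.23 (SE 0.095), with a 95% interval of -0.43 to -0.03, which leaves 85.3% of the wild-type level (74.2% to 98.1%). The edgeR adjusted p was 0.788 (unadjusted 0.0279), and an exact two-sided permutation of the CPM values gave p = 0.127, where the smallest attainable is 0.00794. Without wild-type mouse 4, the highest library, the log2 fold change was -0.15. With 1440 to 2590 reads per library, counting error was small beside the differences between mice.

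Egr2, also called Krox20 and best known for hindbrain patterning and Schwann cell myelination, lies on chromosome 10 from 67535475 to 67542188 (plus strand). It was the scarcest member, with 9 to 54 reads per library. Its values were 0.973, 1.71, 1.05, 1.82 and 1.15 CPM in wild-type mice 1 to 5 and 0.572, 1.02, 0.888, 1.45 and 0.346 CPM in knockout mice 1 to 5. Knockout mice 1, 3 and 5 were below every wild type, whereas knockout mouse 4 was above wild-type mice 1, 3 and 5. The log2 fold change came to -0.62 (SE 0.29), with a 95% interval of -1.23 to -0.01. In edgeR the adjusted p was 0.788 (unadjusted 0.0477), and exact permutation gave p = 0.103. The lowest library, knockout mouse 5 with 9 reads, has a Poisson interval of 4.12 to 17.1 reads (95%, counting error only). Between mice Egr2 varied more than most genes: its biological coefficient of variation in edgeR was 0.263, and 99.5% of genes had a lower one.

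Egr3 lies on chromosome 14 from 70077203 to 70082614 (plus strand) and is known for its need in muscle spindle development and in hippocampal memory. It was at 139.7, 154.4, 153.0, 152.3 and 137.6 CPM in wild-type mice 1 to 5 and at 135.0, 143.7, 143.5, 149.0 and 158.1 CPM in knockout mice 1 to 5. Knockout mice held both the lowest and the highest of the 10 values. Its log2 fold change came to -0.02 (SE 0.046), with a 95% interval of -0.11 to 0.08 and an adjusted p of 0.966 in edgeR. The interval keeps the knockout level between 92.4% and 105.9% of the wild type, the narrowest of the 6 members. The sign turned to 0.01 without knockout mouse 1 and to 0.0016 without wild-type mouse 2.

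Egr4 lies on chromosome 6 from 85511121 to 85513589 (minus strand). It was at 10.1, 8.45, 9.35, 11.4 and 12.1 CPM in wild-type mice 1 to 5 and at 9.15, 8.41, 10.4, 12.2 and 10.4 CPM in knockout mice 1 to 5. The ranges nearly coincided. Its log2 fold change came to -0.02 (SE 0.11; 95% interval -0.25 to 0.20; edgeR adjusted p 0.982). That interval is wider than the one for Egr3 and still holds a fall as large as the one estimated for Egr1. The sign turned when any of 4 libraries was left out: wild-type mice 4 (0.02) and 5 (0.04), and knockout mice 1 (0.01) and 2 (0.04).

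Nab1 lies on chromosome 1 from 52457294 to 52500679 (minus strand). It ranged from 21.3 to 24.4 CPM in wild types, with a median of 23.3, and from 20.8 to 25.4 CPM in knockouts, with a median of 22.4. As with Egr3, knockouts held both ends of the range. Its log2 fold change was -0.01 (SE 0.06, 95% interval -0.14 to 0.11; edgeR adjusted p 0.982), and the estimate turned to 0.02 when mouse 3 of either genotype was left out.

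Nab2 lies on chromosome 10 from 127660918 to 127668568 (minus strand). It was at 53.0, 41.8, 46.6, 55.4 and 46.5 CPM in wild-type mice 1 to 5 and at 50.7, 46.3, 55.7, 51.5 and 49.3 CPM in knockout mice 1 to 5. It was the 1 member with a fold change above 0, at 0.06 on the log2 scale (SE 0.068, 95% interval -0.08 to 0.20; edgeR adjusted p 0.892). Nab2 is a known Egr1 target; 4 of 5 knockouts were above its wild-type mean of 48.7 CPM, where all 5 were below that of Egr1. Its exons overlap genes of the opposite strand, by 40 bases with Stat6, by 151 with Nemp1 and by 1050 with the antisense gene Gm16229, which is 35.7% of its exonic length. The strand setting of the counting is not given in the sources used here, so its level may include reads of those genes. Mean levels in wild types, then knockouts, were 5.35 and 5.25 CPM for Stat6 and 8.56 and 9.12 CPM for Nemp1. Gm16229, which has the largest overlap, has no row in the count table, so its level cannot be given.

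**Figure D3:**
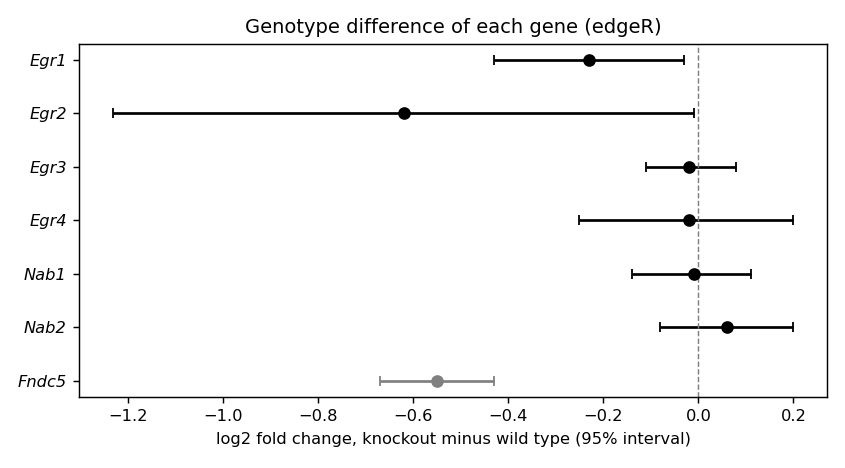
edgeR log2 fold change of each member and of Fndc5, knockout minus wild type, with 95% intervals. The intervals of Egr1 (-0.43 to -0.03) and Egr2 (-1.23 to -0.01) end just below 0 without adjustment for the number of genes, those of the other 4 members include 0, and Fndc5 stands at -0.55.

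Whether the members shifted by different amounts was tested on the ratio of each pair within a mouse. Library scaling cancels in such a ratio except through the prior count of 2 that is added before the log. With few reads, Egr2 depends on that count: Egr2 over Egr3 differed by -0.73, -0.69 and -0.62 at prior counts of 0.5, 2 and 5. For each of the 15 pairs the log2 ratio was compared between genotypes by exact two-sided permutation, and p-values were adjusted over the 15 pairs by the Benjamini-Hochberg method. No pair passed: the lowest adjusted p was 0.255 and 0 pairs had an unadjusted p under 0.05. With 5 mice per genotype a lone pair cannot go below an adjusted p of 0.119, so this test could not have passed a single pair by itself. The different shifts of Egr1 and Egr2 on one side and Egr3, Egr4 and the Nab genes on the other are therefore not established by these mice.

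The ratio of Egr1 to Egr3 came closest, together with that of Egr1 to Nab2. The log2 ratio of Egr1 to Egr3 was -1.17, -1.14, -1.38, -0.95 and -1.36 in wild-type mice 1 to 5 and -1.56, -1.51, -1.34, -1.24 and -1.39 in knockout mice 1 to 5. Knockout mice 1, 2 and 5 lay below every wild type and knockout mice 3 and 4 lay among them. The ratio was 0.864 of the wild-type ratio in knockouts, a log2 difference of -0.21 (SE 0.096, 95% interval by exact permutation -0.43 to 0.01; exact p = 0.0635, adjusted p 0.255).

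Egr1 relative to Nab2, a factor set against its own corepressor, was lower in the knockout by -0.29 on the log2 scale (SE 0.13, interval -0.61 to 0.01; exact permutation p = 0.0635, adjusted p 0.255). The log2 ratio ran from 0.21 to 0.74 in wild types and from -0.15 to 0.29 in knockouts, and knockout mice 1, 2 and 3 lay below every wild type. Egr2 relative to Egr3 differed by -0.69 (interval -1.52 to 0.13; exact permutation p = 0.103), and Egr2 relative to Nab2 by -0.77 (interval -1.67 to 0.17; exact permutation p = 0.0794). Without knockout mouse 5, the library with 9 Egr2 reads, the difference was -0.40 for Egr2 over Egr3, -0.41 for Egr2 over Egr4 and -0.44 for Egr2 over Nab1. At the other end, the ratio of Egr3 to Nab1 differed by -0.004 (interval -0.13 to 0.12; exact permutation p = 0.913). That pair was the steadiest among wild types, with log2 ratios of 2.64 to 2.71, and knockouts spread from 2.55 to 2.82.

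**Figure D4:**
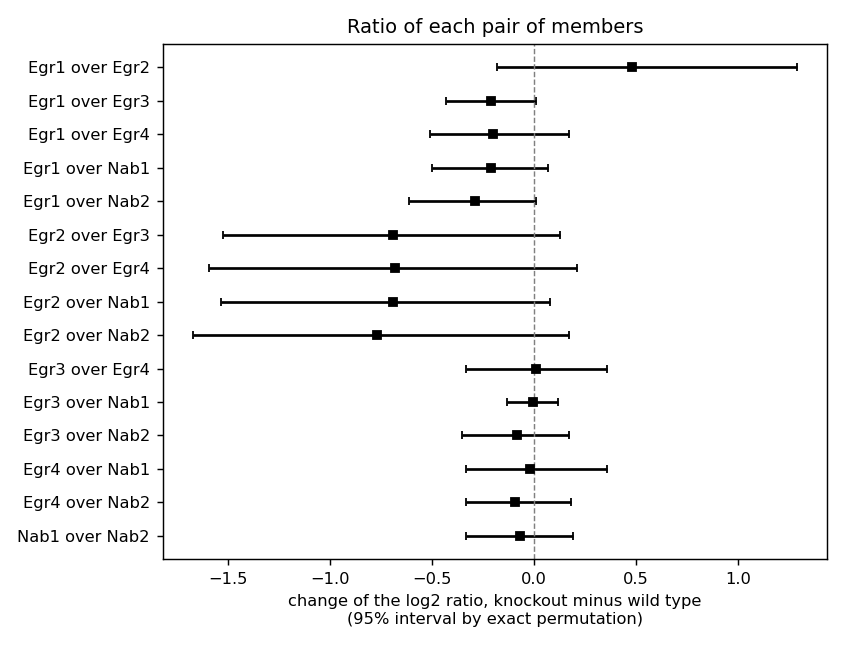
Change of the log2 ratio of each of the 15 pairs of members, knockout minus wild type, with 95% intervals from inverting the exact permutation test. All 15 intervals include 0, and the narrowest belongs to Egr3 over Nab1 (-0.13 to 0.12).

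Correlations between members differed from pair to pair. Over the 10 mice, Pearson's r of log2 CPM was highest for Egr1 with Egr3, at 0.67 (permutation p 0.0317, adjusted over 15 pairs 0.433), with Spearman's rho at 0.61 (permutation p 0.0662, adjusted 0.411). Without wild-type mouse 4 and knockout mouse 1, the mice farthest from the Egr1 median, r was 0.53. Egr1 with Egr2 had r = 0.58 (permutation p 0.0787) and rho = 0.62 (permutation p 0.0605), and r was 0.26 without those same mice. All these values pool both genotypes, so a genotype difference shared by 2 members enters r. On deviations from the genotype means, r was 0.73 for Egr1 with Egr3 and 0.40 for Egr1 with Egr2. Other values rose when the mice farthest from the median were left out: without knockout mice 1 and 5, r went from 0.10 to 0.65 for Egr2 with Egr3, from 0.37 to 0.57 for Egr2 with Nab1 and from 0.54 to 0.77 for Egr3 with Nab1. Egr4 stood apart from Egr3, with r = -0.05 and rho = -0.09 (permutation p 0.884 and 0.811), and went rather with Nab2, at r = 0.53 and rho = 0.54 (permutation p 0.116 and 0.113), falling to r = 0.10 without wild-type mouse 2 and knockout mouse 2. No pair passed after adjustment.

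Deviations from the genotype means were compared with those of 12254 genes (12255 for Egr2), as a description over the 10 libraries. The genes named are the top of each ranking. No chance level was computed for such top values, and shared regulation was not tested. Closest to Egr1 were Tnfaip1 (r = 0.90), Sarnp (0.89) and the AP-1 subunit gene Fosb (0.89). Egr3 was followed most closely by Star (0.95), Ccdc47 (0.94) and Rab14 (0.94), and Egr4 by Elac2 (0.97), Mcrs1 (0.94) and March11 (0.91). Fkbp7 (0.97), Zbtb37 (0.96) and Mocos (0.92) were closest to Egr2, Klhl33 (0.97), Tmem100 (0.96) and Pmp22 (0.91) to Nab1, and Spata2l (0.96) and Alkbh6 (0.93) to Nab2. None of the genes named here appeared under 2 members.

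Other immediate-early transcription factors had mostly lower values in the knockout, with 17 of 21 tested below 0 and a median log2 fold change of -0.18, against 49.3% and 0.00 for all genes. That share is not independent evidence either, because the list was chosen with earlier results of these libraries known. None of the 21 passed over all genes in the main edgeR fit, which held all 10 libraries and genotype alone. Npas4 passed with the DESeq2 Wald test, with the mouse number as a block and without wild-type mouse 1, and Fosb passed with DESeq2. In the main edgeR fit, Fosb was at -0.51 (SE 0.10, edgeR adjusted p 0.56), and Npas4, which neurons induce on calcium entry, at -0.76 (SE 0.15, adjusted p 0.56). Fosl2 was at -0.21 (SE 0.046, adjusted p 0.788) and Fos at -0.58 (SE 0.18, adjusted p 0.788). Values in this list ran from -0.76 to 0.43, which takes in all the Egr genes. Egr1 and Egr2 were below its median, while Egr3 and Egr4 were nearer to 0 than that median. Whether the Egr genes differ from these factors was not tested.

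Inducers of the Egr genes were split, with 8 of 25 below 0 and a median of 0.02. Camk4, a calcium-dependent kinase that phosphorylates CREB, was at -0.16 (SE 0.053) and the serum response factor partner Elk4 at -0.19 (SE 0.096). The CREB coactivator Crtc1 was at 0.07 (SE 0.034) and the kinase gene Rps6ka4 at 0.14 (SE 0.068). Srf itself, named after its value was seen, was at 0.04 (SE 0.043). All had edgeR adjusted p-values of at least 0.788.

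Known Egr targets, a list that includes the member Nab2, were also split, with 7 of 18 tested below 0 and a median of 0.01. With limma-voom 10 of the 18 were below 0. Arc, the synaptic plasticity gene with Egr sites in its activity response, averaged 53.5 ± 7.35 CPM across wild types against 45.0 ± 7.55 CPM across knockouts, a log2 fold change of -0.25 (SE 0.10, edgeR adjusted p 0.788). Gabra4, a GABA-A subunit gene driven by Egr3, was at -0.10 (SE 0.044) and the synapsin gene Syn2 at -0.06 (SE 0.036), with adjusted p-values of 0.788 to 0.80. The other 4 of the 22 listed targets were under the low-count filter.

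Subunits of the NuRD complex, a chromatin repressor that Nab2 recruits through Chd4, lay near 0 with a median of 0.03, and 5 of 13 were below 0. Mta2 was at 0.10 (SE 0.039), Mta1 at 0.09 (SE 0.04), the deacetylase gene Hdac1 at 0.12 (SE 0.055) and Mbd3 at 0.08 (SE 0.044), with edgeR adjusted p-values of 0.788 to 0.80. Zinc-finger factors that bind similar GC-rich sites were split 6 to 6. Among them Sp1 was at -0.17 (SE 0.059, adjusted p 0.788), Zfp148 and Zfp281 at -0.07, and Maz at 0.05. Log2 fold changes ran from -0.05 to 0.12 over the NuRD subunits and from -0.17 to 0.07 over the zinc-finger factors.

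**Figure D5:**
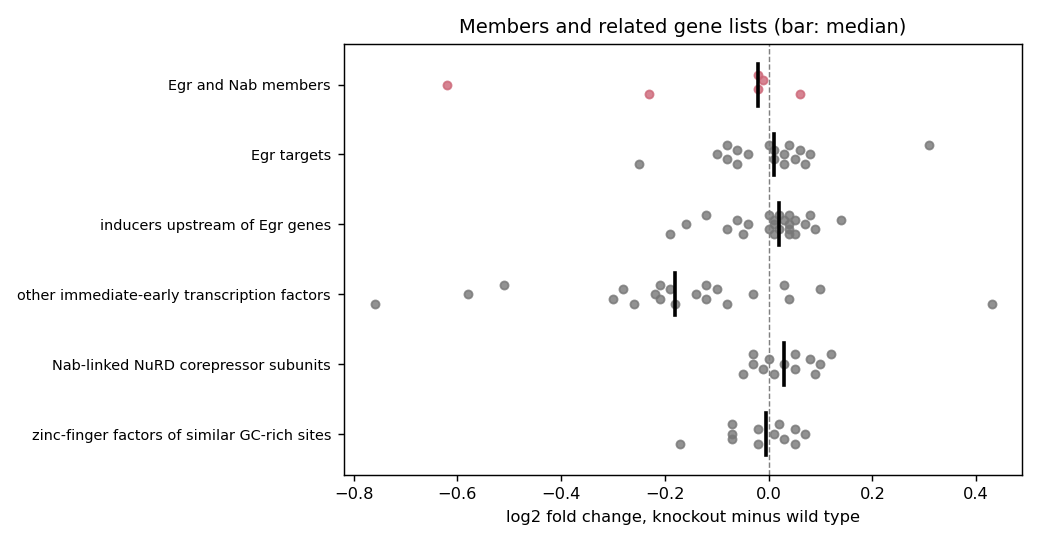
log2 fold change, knockout minus wild type, of the 6 members (red) and of every tested gene of 5 related lists (grey), with black bars at the medians. Nab2 is plotted both as a member and as a known Egr target. The other immediate-early factors have their median at -0.18, the remaining 4 lists have medians of about 0 to 0.03, and no point shown passed the test over all genes.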

How the data were processed

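The authors deposited unnormalized counts, 1 row per gene symbol. Build mm10 and the tools Cufflinks 2.2.1 and STAR 2.5.1b come from the submitters' processing notes, with no role or order; for annotation, strand setting and multi-mapping reads, the treatment is not given in the sources. Per the labels' protocols, a stranded mRNA kit was used on 500 ng of RNA, with single-end reads of 75 bases. Groups follow the genotype in the labels, and 1 mouse is 1 library. The members and gene lists were chosen with earlier results of these data known. Named list genes are the 4 with the smallest p in each list.

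Counts were filtered with filterByExpr and scaled by TMM. Genotypes were compared across all genes with edgeR 4.0.16 (glmQLFit, glmQLFTest; R 4.3.3), adjusted by Benjamini-Hochberg over 14867 genes at a threshold of 0.05. Each SE is the fold change divided by the root of F. Ratios and correlations used log2 CPM with a prior count of 2, exact permutation over 252 assignments, and 100000 resamples. For likeness, the 3 genes of highest r were named, among genes with a mean log2 CPM of at least 1. Some genes that these rules select are not reported here. The fit was tested on simulated counts. Alternatives were DESeq2 1.42.0, limma-voom (limma 3.58.1), other scalings and filters, the mouse number as a block and each library left out. Gene list counts under these were added after seeing the data. Of 24982 symbols, 24853 matched a reference symbol and 64 a synonym. The lowest chi-square over degrees of freedom of 2 libraries of a genotype was 4.63, so each counted as 1 replicate.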

Additional observations from a re-analysis of the deposited data

Results flagged for a closer look

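Among 66 groups of 5 values, 2 had a mouse standing far from the other 4; chance gives about 1 in 20, or 3.3. The log2 ratio of Egr4 to Nab2 was -1.94 in wild-type mouse 5, and the other wild types lay between -2.38 and -2.27. The summed CA2 and CA3 pyramidal markers were at 284.2 CPM in knockout mouse 5, and the other knockouts were between 240.8 and 252.9 CPM. That mouse also had the highest Egr3 level (158.1 CPM) and the lowest Egr2 level (0.346 CPM) of the 10. The part of CA tissue in these values was not tested.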

How the results depend on the processing

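No member passed in any of 17 alternatives. Egr1 stayed below 0 in all 17 (log2 fold change -0.29 to -0.15, lowest edgeR adjusted p 0.294) and so did Egr2 (-0.88 to -0.44, lowest 0.318), while Nab2 stayed above 0 (0.01 to 0.11). Signs turned for 3 members, each with libraries left out: Egr3 ranged from -0.05 to 0.01, Egr4 from -0.10 to 0.04 and Nab1 from -0.06 to 0.02. The count of genes called was 1, and was 3 with the DESeq2 Wald test (Fndc5, Fosb and Npas4), 8 with the replicate block (Npas4 among them, no member), 3 without wild-type mouse 1 (Npas4 among them) and 2 without knockout mouse 2 (1 to 3 over left-out libraries); the cause was not tested. Same-numbered mice correlated at 0.209, 0.204, 0.108, 0.00901 and 0.0282, and 6 of 10 mice correlated best with their own number. The library labels run in same-numbered order, wild type then knockout, but name no shared litter or batch. Because the labels name no shared litter, batch or day for these numbers, the main fit did not pair the mice. Whether the numbers pair them is not known. Egr2 was lower in the knockout for all 5 numbers. With the replicate block Egr1 was at -0.23 (unadjusted p 0.00488, adjusted 0.294) and Egr2 at -0.65 (unadjusted p 0.00637, adjusted 0.318). No pair of members passed in 13 alternatives; the block for ratios, a sign-flip over 5 pairs, cannot go below 0.0625. With single libraries left out Egr3 over Egr4 ranged from -0.07 to 0.10, Egr3 over Nab1 from -0.04 to 0.03 and Egr4 over Nab1 from -0.09 to 0.07. Without the mice farthest from the median, r turned to -0.08 for Egr1 with Egr4 and -0.17 for Egr1 with Nab2; Egr3 with Egr4 was at 0.02 with library totals alone. Other immediate-early factors below 0 numbered 16 to 18. Egr2 rests on 9 to 54 reads per library.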
